A study of Mus musculus with 2 samples.

Results

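Chemokines of type 2 inflammation and the receptors that read them were examined in single cells of the mouse colon lamina propria. The group held 7 genes, picked by symbol from the 31053 features of the count matrices: the ligands Ccl17, Ccl22, Ccl24, Ccl6 and Ccl9 and the receptors Ccr3 and Ccr7. All 7 had unique molecular identifiers (UMIs, tags that mark single captured RNA molecules) in both libraries. One library was wild type (WT) and the other carried a LncRNA17Rik knockout (KO), a long non-coding RNA that the study names lncLy6c and removed in the germline with CRISPR-Cas9 cuts on both sides of its exons, on a C57BL/6J background. The animals received no further treatment that the labels name, and the labels give no age, sex or number of mice per library. The study describes its scRNA-seq samples as pools of young adult males, so animals cannot be told apart within a library. The labels describe the cells as cd11b+, after the myeloid surface protein encoded by Itgam.

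Chemokines are small secreted proteins that set up gradients along which leukocytes move by way of receptors coupled to G proteins. CCL17 and CCL22 are the ligands of CCR4, which is carried by Th2 and regulatory T cells, and they are known as products of dendritic cells and of macrophages stimulated by IL-4. CCL24 (eotaxin-2) acts through CCR3, the main chemokine receptor of eosinophils, while CCL6 and CCL9 are rodent chemokines of the myeloid lineage that act on CCR1. CCR7 leads mature dendritic cells and naive lymphocytes toward its ligands CCL19 and CCL21 in lymph nodes.

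After the study's cell filters, 2597 WT cells with 18994564 UMIs and 2514 KO cells with 22331342 UMIs were kept, and 1 barcode occurred in both libraries. Cells of the KO library were deeper, with a median of 6564.5 UMIs against 5073 in WT. Levels are given as CPM, the UMIs of a gene per 1000000 UMIs of the cell class. With 1 library per genotype no difference between genotypes was tested, and all 95% intervals cover counting error only. Cells were grouped without use of the 7 genes into 26 clusters, of which 23 were named from markers of 14 cell classes and 3 kept the name of their leading gene. An Itgam UMI was found in 40.0% of WT and 57.8% of KO cells, and classes of B, T, plasma, epithelial and stromal cells were present beside the myeloid ones. The classes differed in size between the libraries, with 305 WT and 598 KO conventional dendritic cells of type 2 (cDC2-like), 398 and 363 inflammatory monocyte-like cells, and 227 and 5 plasma cell-like cells. The mature dendritic cell class (mature DC-like) held 19 WT and 42 KO cells and the Retnla macrophage-like class 18 and 148. The rule for named classes required 20 cells in each library, which both missed in WT and epithelial cell-like cells (123 and 16) in KO, so these 3 classes were described after their values were seen.

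The promoters of the 2 neighbouring gene pairs are shown because the members of each pair had similar profiles across cell classes (Pearson r = 0.91 for Ccl17 and Ccl22, 0.81 for Ccl6 and Ccl9, both as a description). A profile needed 20 cells, which left out WT mature DC-like cells, where Ccl17 was at 137 CPM and Ccl22 at 3512 CPM. WT Retnla macrophage-like cells were left out too, with Ccl17 at 34.4 CPM and Ccl22 at 640 CPM. Ccl22 (ENSMUSG00000031779, chr8:94745590-94751699, plus strand) and Ccl17 (ENSMUSG00000031780, chr8:94810453-94812036, plus strand) lie 58753 bases apart with Gnb1-ps3 and Cx3cl1 between them (GENCODE M21, GRCm38). Ccl9 (ENSMUSG00000019122, chr11:83572919-83578636, minus strand) and Ccl6 (ENSMUSG00000018927, chr11:83587882-83593087, minus strand) are 9245 bases apart with no annotated gene between them. The bases before each start site, from the RefSeq promoter table (GRCm38.p6), are written in the direction of transcription, at chr8:94745434-94745589 for Ccl22, chr8:94810203-94810452 for Ccl17, chr11:83578637-83578886 for Ccl9 and chr11:83593088-83593337 for Ccl6. Capitals mark a match to the NF-kappaB motif in Ccl22 (GGGA and CC with 4 bases of any kind between them, here on the reverse strand), to the STAT6 motif in Ccl17 (TTC and GAA with 4 bases of any kind between them) and the longest run of bases that Ccl6 and Ccl9 share.
Ccl22: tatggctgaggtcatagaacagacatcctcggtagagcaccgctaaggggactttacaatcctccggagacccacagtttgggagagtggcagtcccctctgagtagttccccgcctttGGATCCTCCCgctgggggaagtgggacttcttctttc
Ccl17: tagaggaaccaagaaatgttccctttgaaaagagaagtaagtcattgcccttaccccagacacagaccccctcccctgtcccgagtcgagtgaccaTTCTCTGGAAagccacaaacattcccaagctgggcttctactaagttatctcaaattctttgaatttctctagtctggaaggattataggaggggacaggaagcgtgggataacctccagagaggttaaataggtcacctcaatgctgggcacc
Ccl9: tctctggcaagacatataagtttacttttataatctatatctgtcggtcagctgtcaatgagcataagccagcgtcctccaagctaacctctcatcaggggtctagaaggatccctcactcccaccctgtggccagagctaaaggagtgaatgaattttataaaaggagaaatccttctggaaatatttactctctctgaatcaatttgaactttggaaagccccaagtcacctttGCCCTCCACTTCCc
Ccl6: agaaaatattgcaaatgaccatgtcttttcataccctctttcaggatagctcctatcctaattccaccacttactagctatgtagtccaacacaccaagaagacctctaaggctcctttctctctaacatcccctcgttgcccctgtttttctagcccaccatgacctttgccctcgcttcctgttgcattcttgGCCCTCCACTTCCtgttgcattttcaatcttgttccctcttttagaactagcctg

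The Ccl22 stretch is 156 bases long and the other 3 are 250. Over 32851 RefSeq promoters, with 250 upstream bases searched on both strands, 17.6% held a match to the NF-kappaB letters and 5.85% a match to the STAT6 letters. The run shared by Ccl6 and Ccl9, GCCCTCCACTTCC, has 13 bases and occurred in 3 of the 32851 windows. The longest run shared by Ccl17 and Ccl22 was 7 bases, AGGGGAC, which was present in 2.39% of the windows. Each shared run was picked because both members of the pair hold it, so the windows counted for it include those members. How often other promoter pairs share a run this long was not counted. These matches describe the letters only.

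The source of each gene was read from the share of its UMIs that each class held. No member met the limit set for a sole source, at least 80% of the UMIs in the same class in each library, which 1.76% of 9457 genes with at least 200 UMIs met. With the limit at 50%, which 4.28% of these genes met, Ccl22 had mature DC-like cells as its source (52.3% of WT and 71.0% of KO UMIs) and Ccr3 the Serpinb2 cluster (64.4% and 81.3%). With the libraries clustered alone the call for Ccl22 was lost, since clusters without a name then held 69.3% of its KO UMIs. Ccl17 had its largest share in cDC2-like cells, 73.6% in WT and 46.0% in KO. For Ccl24 82.9% of WT UMIs lay in inflammatory monocyte-like cells and 89.0% of KO UMIs in Retnla macrophage-like cells. This depended on the clustering, since at a lower resolution (0.5) 85.5% and 93.2% lay in clusters without a name, and with the libraries clustered alone 77.3% of KO UMIs lay in resident macrophage-like cells. Ccl6 and Ccl9 were spread over many myeloid classes, with 19.3% of the WT Ccl6 UMIs in epithelial cell-like cells, and Ccr7 lay mainly in dendritic cells and lymphocytes.

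**Figure D1:**
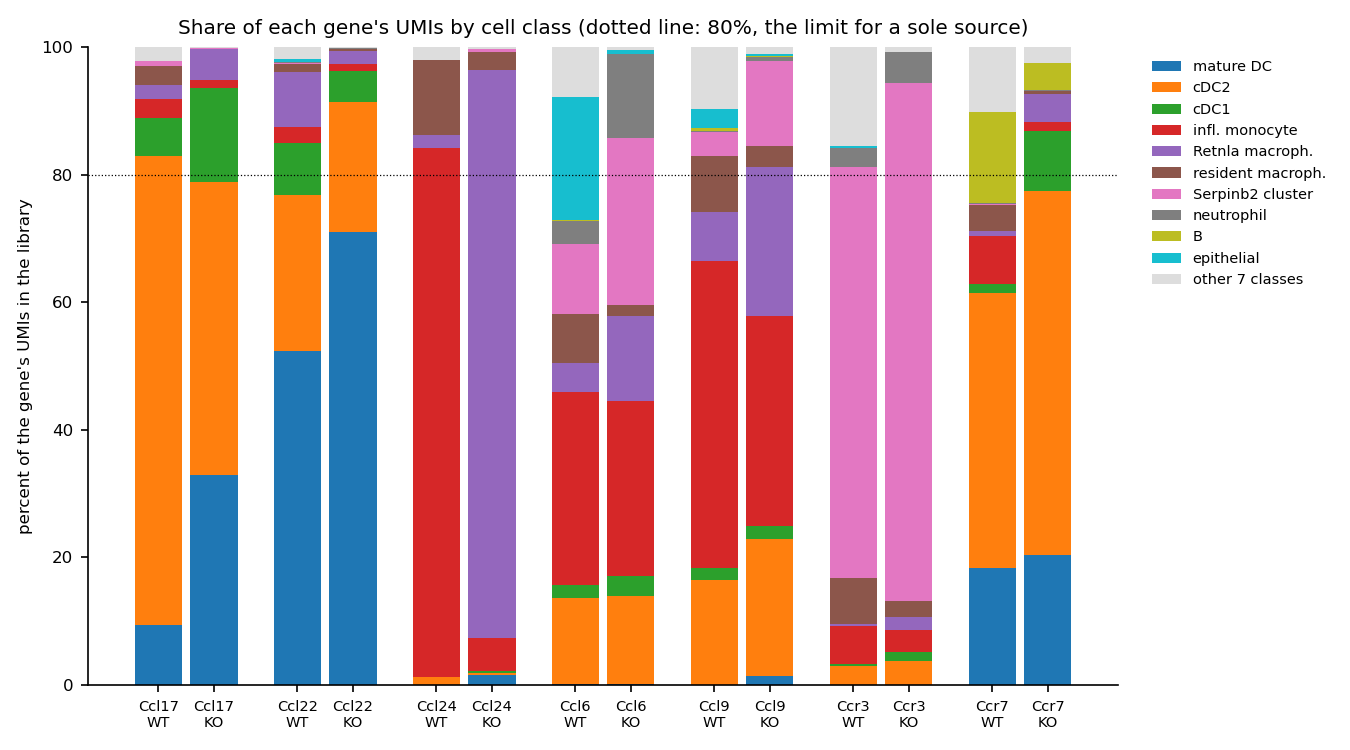
Stacked bars give the percent of each gene's UMIs in every cell class (vertical axis), 1 bar per gene and library; the dotted line is drawn at 80%, the length a single segment needs for a sole source. Segments that long are seen for Ccr3 in KO (81.3%, Serpinb2 cluster), Ccl24 in WT (82.9%, inflammatory monocyte-like cells) and Ccl24 in KO (89.0%, Retnla macrophage-like cells), and for no gene with the same class in both libraries.

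Over all cells Ccl17 differed most between the libraries, at 12.4 CPM in WT (235 UMIs) and 342 CPM in KO (7639 UMIs), a log2 ratio of 4.79 (95% interval 4.60 to 4.98). Ccl22 followed with 56.5 and 334 CPM (log2 2.56, 2.47 to 2.66). Ccl24 had 152 and 365 UMIs (log2 1.03, 0.75 to 1.31). The remaining 4 genes were between 0.64 (Ccr3) and 0.95 (Ccl6) on the log2 scale, all higher in KO. Of 12405 genes with at least 50 UMIs, 20.9% differed by a log2 ratio of at least 1 in either direction, against 3 of the 7 members. With every cell weighted equally Ccl6 had 1.54 and Ccl9 1.22, while Ccr7 had 0.20. The share of all genes past the limit was not computed with this weighting, so no count of members is given for it. Since class sizes differed too, the classes are given one by one.

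**Figure D2:**
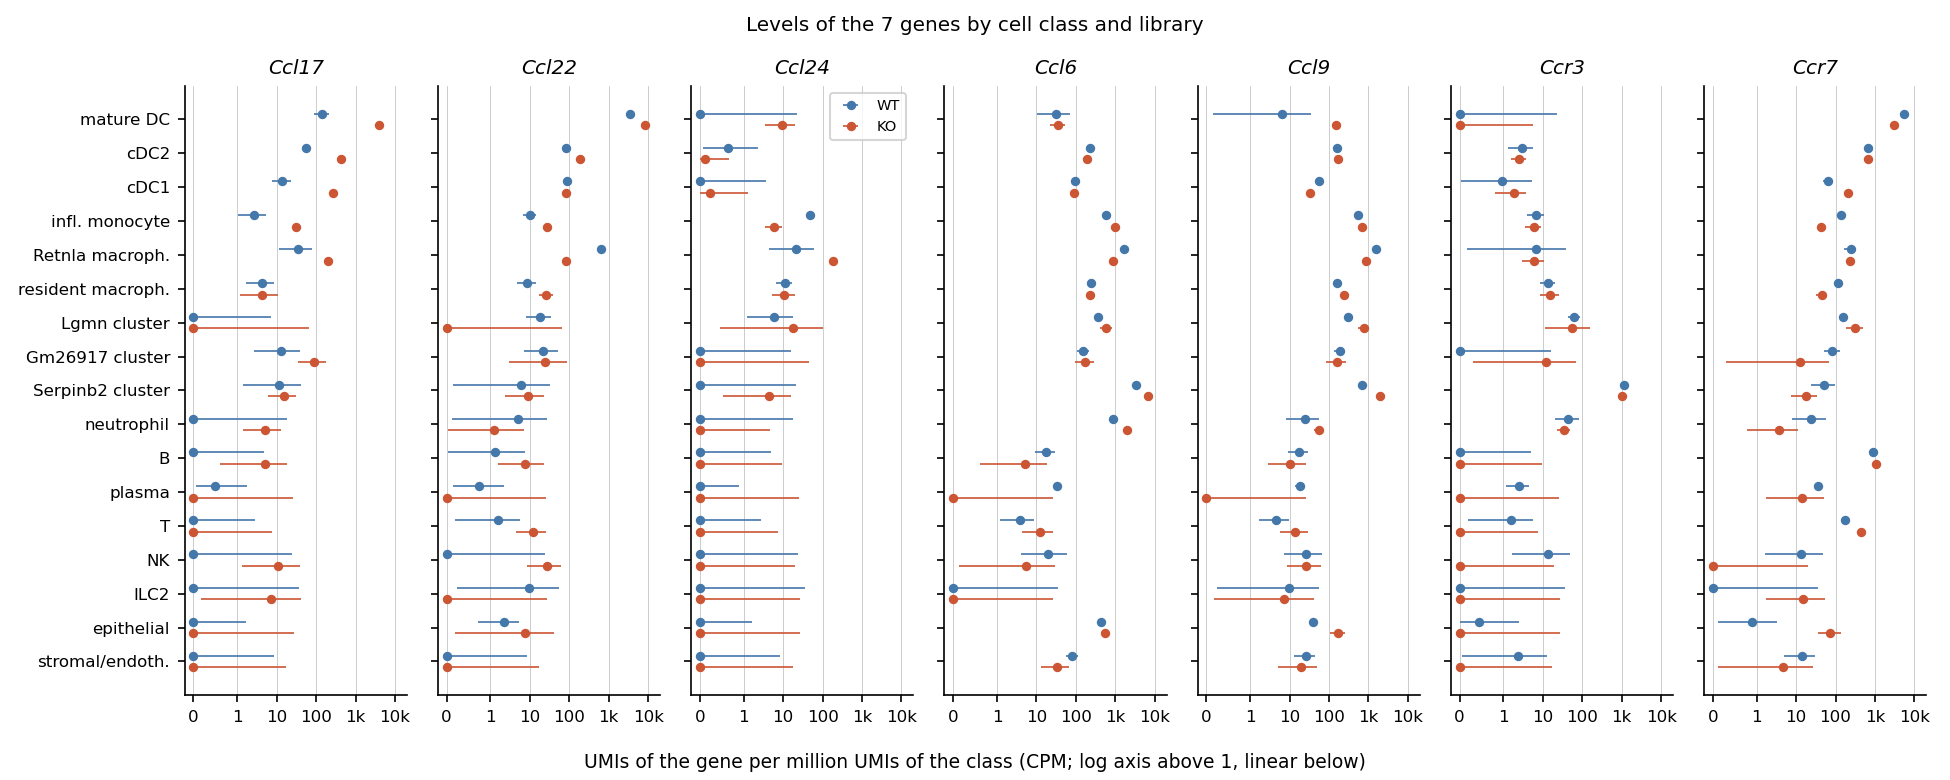
Each panel shows 1 gene, with cell classes on the vertical axis and CPM on the horizontal axis (log axis above 1); circles are library values (WT blue, KO orange) and lines 95% Poisson intervals for counting error. Ccl22 and Ccr7 are highest in mature DC-like cells (3512 and 8227 CPM for Ccl22, 5456 and 3059 CPM for Ccr7 in WT and KO) and Ccr3 in the Serpinb2 cluster (1136 and 995 CPM).

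Mature DC-like cells were named from their marker list, of which 9 of 10 genes were raised. Among these were the actin bundler Fscn1 (2631 CPM in WT, 1450 CPM in KO) and the amino acid oxidase Il4i1 (956 and 705 CPM). Ccl22, 1 of the 2 ligands of CCR4, was at 3512 CPM in WT (562 UMIs, 95% interval 3228 to 3815) and at 8227 CPM in KO (5295 UMIs, 8007 to 8452). The next highest class in KO was cDC2-like, 45.3-fold lower (interval 42.8 to 48.0). In WT it was Retnla macrophage-like, 5.48-fold lower (4.40 to 6.91), where all UMIs lay in 1 cell, and then cDC1-like and cDC2-like cells at 85.1 and 84.6 CPM. Ccl17, the other ligand, had 22 UMIs in the WT cells (137 CPM, 86.2 to 208) and 2512 in the KO cells (3903 CPM, 3752 to 4059). Both ligands were higher in the KO library, by 4.83 on the log2 scale for Ccl17 (4.23 to 5.50) and by 1.23 for Ccl22 (1.10 to 1.36). Ccr7, the receptor that brings these cells to lymph nodes, went the other way, at 5456 CPM in WT (873 UMIs) and 3059 CPM in KO (1969 UMIs), a log2 ratio of -0.83 (-0.95 to -0.72). With every cell weighted equally the Ccr7 ratio was -0.51.

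Both ligands were also found in a larger share of KO cells. A Ccl17 UMI was found in 5 of 19 WT cells (26.3%, Clopper-Pearson interval 9.15 to 51.2%) and in 37 of 42 KO cells (88.1%, 74.4 to 96.0%). No WT cell held more than 10 Ccl17 UMIs, whereas the KO cells reached 405 with a median of 21.5. Ccl22 was found in 13 of 19 WT and 40 of 42 KO cells, and its median was 10 UMIs in WT and 84.5 in KO. Ccr7 was found in 19 of 19 WT and 41 of 42 KO cells, with 1 to 128 UMIs per WT cell (median 41) and 0 to 105 per KO cell (median 46), ranges that overlapped. Cells with UMIs of Ccl17, Ccl22 and Ccr7 together were 4 of 19 in WT and 37 of 42 in KO. All 37 KO cells with Ccl17 also held Ccl22.

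Depth moved with this difference, since the median was 8632 UMIs in the WT and 15341 in the KO cells. When every cell was thinned to 2000 UMIs, which left out 3 WT cells and 1 KO cell, Ccl17 was found in 18.8% of WT (4.05 to 45.6%) and 61.0% of KO cells (44.5 to 75.8%). The background share was read from T cell-like cells, where Ccl17 was found in 0 of 221 WT and 0 of 82 KO cells, which allows up to 1.36% and 3.66% of cells (median depth 4962 and 5764.5 UMIs). Other lymphocytes of the KO library were not all at 0, with Ccl17 in 2 of 41 NK cell-like (4.88%, 0.60 to 16.5%) and 2 of 85 B cell-like cells. For Ccl22 this background was higher in KO. It was found in 2 of 221 WT and 6 of 82 KO T cell-like cells, and in 0 of 26 WT and 5 of 41 KO NK cell-like cells. Without the cell with the most UMIs of the gene in each library, the log2 ratio was 5.36 for Ccl17, 1.51 for Ccl22 and -0.78 for Ccr7. Ccl9, a minor transcript here, had 1 UMI in WT and 99 in KO (log2 4.62, 2.11 to 9.94), and without the top cells it was at least 5.88-fold higher in KO at a WT floor of 3 UMIs. Of the 4 members with at least 50 UMIs in this class 3 were past a log2 ratio of 1, against 18.2% of 1982 genes. Ccl17 and Ccl9 met the 50 UMIs only through the KO library, so their places in this count are not read as a result.

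**Figure D3:**
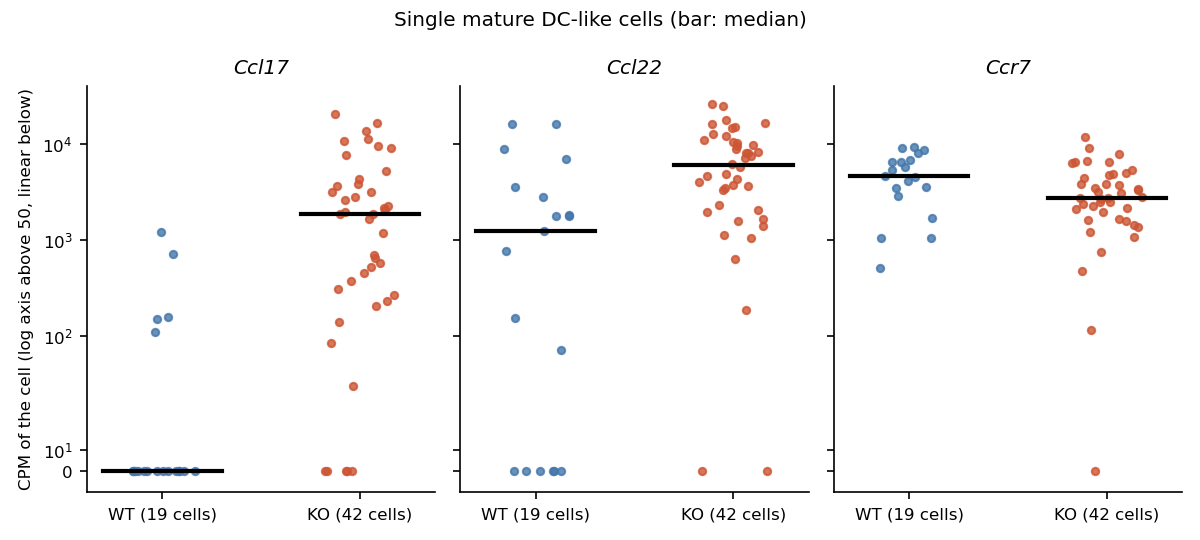
Points are single mature DC-like cells (19 WT, 42 KO), with the CPM of Ccl17, Ccl22 or Ccr7 on the vertical axis (log axis above 50) and bars at the median. The median Ccl17 level was 0 in WT and 1854 CPM in KO, the median Ccl22 level 1242 and 5976 CPM, and the median Ccr7 level 4599 and 2740 CPM.

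The cDC2-like cells, which take up antigen in the tissue and prime helper T cells, held most Ccl17 UMIs of the WT library. Ccl17 was at 55.6 CPM in WT (173 UMIs, 47.7 to 64.6) and 420 CPM in KO (3511 UMIs, 406 to 434), a log2 ratio of 2.91 (2.69 to 3.14). It was detected in 41 of 305 WT cells (13.4%) and 221 of 598 KO cells (37.0%), and after thinning to 2000 UMIs in 5.39% (3.11 to 8.60%) and 23.1% (19.7 to 26.7%). Ccl22 was at 84.6 CPM in WT against 181 CPM in KO (log2 1.10, 0.91 to 1.30), and 0.78 when each cell was weighted equally, which is under the limit of 1. Ccr7 was at 661 CPM in both libraries, with an interval of the log2 ratio from -0.07 to 0.07. Past a log2 ratio of 1 were 2 of 5 members, against 7.69% of 8465 genes.

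The class was made of 3 clusters that the libraries filled unequally. Cluster 1, led by Cd209d and Clec10a, held 189 cells of each library, cluster 6, led by Mgl2 and Cd209a, held 16 WT and 267 KO cells, and cluster 10, led by Plet1 and Itgae, held 100 and 142. Ccl17 was higher in KO in all 3, at 42.2 and 128 CPM in cluster 1 (log2 1.60, 1.22 to 1.99), 220 and 782 CPM in cluster 6 (log2 1.83, 1.40 to 2.30) and 48.4 and 86.0 CPM in cluster 10 (log2 0.83, 0.39 to 1.28). Each of these ratios was smaller than that of the whole class. Ccl22 did not share 1 direction, with 67.0 CPM in WT against 27.5 CPM in KO in cluster 1 (log2 -1.28, -1.77 to -0.81) and higher KO levels in clusters 6 (128 and 255 CPM) and 10 (105 and 192 CPM). Ccr7 was likewise lower in KO in cluster 1 (462 and 208 CPM, log2 -1.15, -1.32 to -0.98), and in cluster 6 (854 and 665 CPM, log2 -0.36, -0.59 to -0.13), while cluster 10 had 940 and 1031 CPM.

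In cDC1-like cells (66 WT, 200 KO), which present antigen to CD8 T cells, Ccl17 was at 13.7 CPM in WT (14 UMIs) and 263 CPM in KO (1125 UMIs), a log2 ratio of 4.26 (3.51 to 5.14). A single WT cell held 9 of the 14 UMIs, and the ratio without the top cell of each library was 5.47 (4.24 to 7.09). Ccr7 was also higher in KO, at 62.6 and 212 CPM (log2 1.76, 1.39 to 2.15), and it was so in both clusters of the class (log2 1.53 and 1.83). With the libraries clustered alone the Ccr7 ratio of the class was 2.36 (40.7 and 209 CPM). Ccl22 had 85.1 and 84.0 CPM, with a log2 interval from -0.36 to 0.34, but a log2 ratio of -0.87 with every cell weighted equally. Past a log2 ratio of 1 were 2 of 5 members, against 6.05% of 7090 genes.

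Ccl24 (ENSMUSG00000004814, chr5:135569937-135573049, minus strand), the eotaxin of the group, was the rarest ligand, with 152 UMIs in WT and 365 in KO. In WT 126 of these UMIs lay in inflammatory monocyte-like cells (47.1 CPM), but 107 of them came from a single cell and 12 of 398 cells had any. In KO 325 UMIs lay in Retnla macrophage-like cells (180 CPM, 161 to 201), where 183 came from a single cell and 33 of 148 cells had any (22.3%, 15.9 to 29.9%). The WT library had 3 UMIs in 3 of 18 cells of that class (20.7 CPM, 4.26 to 60.4), which gives a log2 ratio of 3.12 (1.56 to 5.41). Without the top cell of each library the class ratio was 2.36 (0.48 to 5.42), and that in inflammatory monocyte-like cells changed from -2.99 to -0.71 (-1.81 to 0.37). Over all cells 45 WT and 182 KO UMIs remained without the top cells. With the libraries clustered alone the ratio in inflammatory monocyte-like cells was -6.72 (44.6 and 0.424 CPM). Its size is not read, since the WT cell with 107 UMIs was kept and the KO count lay under the floor of 3 UMIs. All 126 WT UMIs of that class lay in 1 of its 4 clusters, led by Ly6i and Cxcl9 (313 WT and 18 KO cells), inside which Ccl24 was not lower in KO, with 58.1 and 64.6 CPM (log2 0.15, -0.94 to 1.08), or 8.80 and 35.1 CPM without the top cells (log2 1.99, 0.22 to 3.46). In B cell-like cells 0 of 190 WT and 0 of 85 KO cells held a Ccl24 UMI, which allows up to 1.58% and 3.53%.

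In Retnla macrophage-like cells, which carry the alternative activation gene Retnla and the lipase Lpl, Ccl17 had 34.4 CPM in WT against 201 CPM in KO (log2 2.55, 1.31 to 4.18). All 5 WT UMIs lay in 1 cell, and in KO 26 of 148 cells were positive. Ccl22 had 640 CPM in WT against 83.6 CPM in KO (log2 -2.94, -3.32 to -2.55), but all 93 WT UMIs lay in 1 cell. Without that cell the WT count was 0 UMIs, and the KO level of 73.2 CPM was at least 3.07-fold higher than the WT floor of 3 UMIs in the library's class. The low Ccl22 ratio of this class rests on a single cell. Ccl6 and Ccl9 had 1639 and 1577 CPM in WT and 863 and 860 CPM in KO. Ccr7 had 241 CPM in WT, where 1 cell held 23 of 35 UMIs, and 233 CPM in KO, and the log2 ratio without the top cells was 1.06 (0.24 to 2.03). Past a log2 ratio of 1 were 3 of 6 members, against 16% of 4184 genes.

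Inflammatory monocyte-like cells, recent arrivals from blood marked by Ly6c2 and Ccr2, held the largest UMI share of both Ccl6 (30.3% in WT, 27.5% in KO) and Ccl9 (48.2% and 32.8%). For Ccl6 in KO the Serpinb2 cluster was close (26.0%), and it held the largest share at resolution 0.5 (26.0%) and with the libraries clustered alone (26.1%). At resolution 0.5 clusters without a name held the largest part of the WT Ccl6 UMIs (32.6%) and of the Ccl9 UMIs (52.7% in WT, 29.2% in KO), and the monocyte class held 5.87% of WT Ccl6 and 7.64% of WT Ccl9 UMIs. Ccl6 was at 589 CPM in WT (560 to 619) and 1007 CPM in KO (972 to 1042), a log2 ratio of 0.77 (0.69 to 0.86). Ccl9 was at 542 and 678 CPM (log2 0.32, 0.23 to 0.42). Here too the libraries filled the 4 clusters differently, since cluster 3, led by Ly6i and Cxcl9, held 313 WT and 18 KO cells and cluster 5, led by Chil3 and Ace, held 38 and 270. Ccl6 was not higher in KO inside either of these 2, with 505 and 220 CPM in cluster 3 (log2 -1.20, -1.74 to -0.71) and 1059.6 and 965 CPM in cluster 5 (log2 -0.13, -0.32 to 0.05). It was higher in KO in cluster 23, with Rsad2 and Ccl7 among its leading genes (14 and 38 cells), with 545 and 1797 CPM (log2 1.72, 1.30 to 2.17, and 1.35 without the top cells), and had 1016 and 1159 CPM in cluster 19. Ccl9 had 490 and 323 CPM in cluster 3 and 599 and 636 CPM in cluster 5. Ccr7 had 135 CPM in WT against 42.3 CPM in KO over the class (log2 -1.68, -1.97 to -1.39), but 155 and 207 CPM in cluster 3 (log2 0.41, -0.16 to 0.94) and 31.7 and 31.6 CPM in cluster 5. It was lower in KO in cluster 23, with 171 and 67.6 CPM (log2 -1.34, -2.43 to -0.24), and had 1 WT and 7 KO UMIs in cluster 19.

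The DC chemokines were scarce in these monocytes. Of 101 Ccl17 UMIs in KO 79 came from 1 cell, and of 88 Ccl22 UMIs 64 came from 1 cell. Without the top cell of each library Ccl22 had 7.15 CPM in WT against 7.54 CPM in KO (log2 0.08, -0.85 to 1.03), against 10.1 and 27.4 CPM with it (log2 1.44, 0.80 to 2.12). Past a log2 ratio of 1 with all cells were 4 of 6 members, against 9.02% of 7005 genes. Of these, Ccl22 (0.08) and Ccl24 (-0.71) were under the limit without the top cells. Ccl17 (2.62, 0.88 to 5.00, with 3 WT and 22 KO UMIs) and Ccr7 (-1.84) stayed past it. In resident macrophage-like cells (204 WT, 110 KO) Ccl6 was at 237 and 232 CPM, Ccl9 at 160 and 243 CPM (log2 0.60, 0.34 to 0.86) and Ccr7 at 115 and 45.4 CPM (log2 -1.35, -1.87 to -0.86), so that 1 of 3 members was past a log2 ratio of 1, against 10.5% of 5247 genes.

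**Figure D4:**
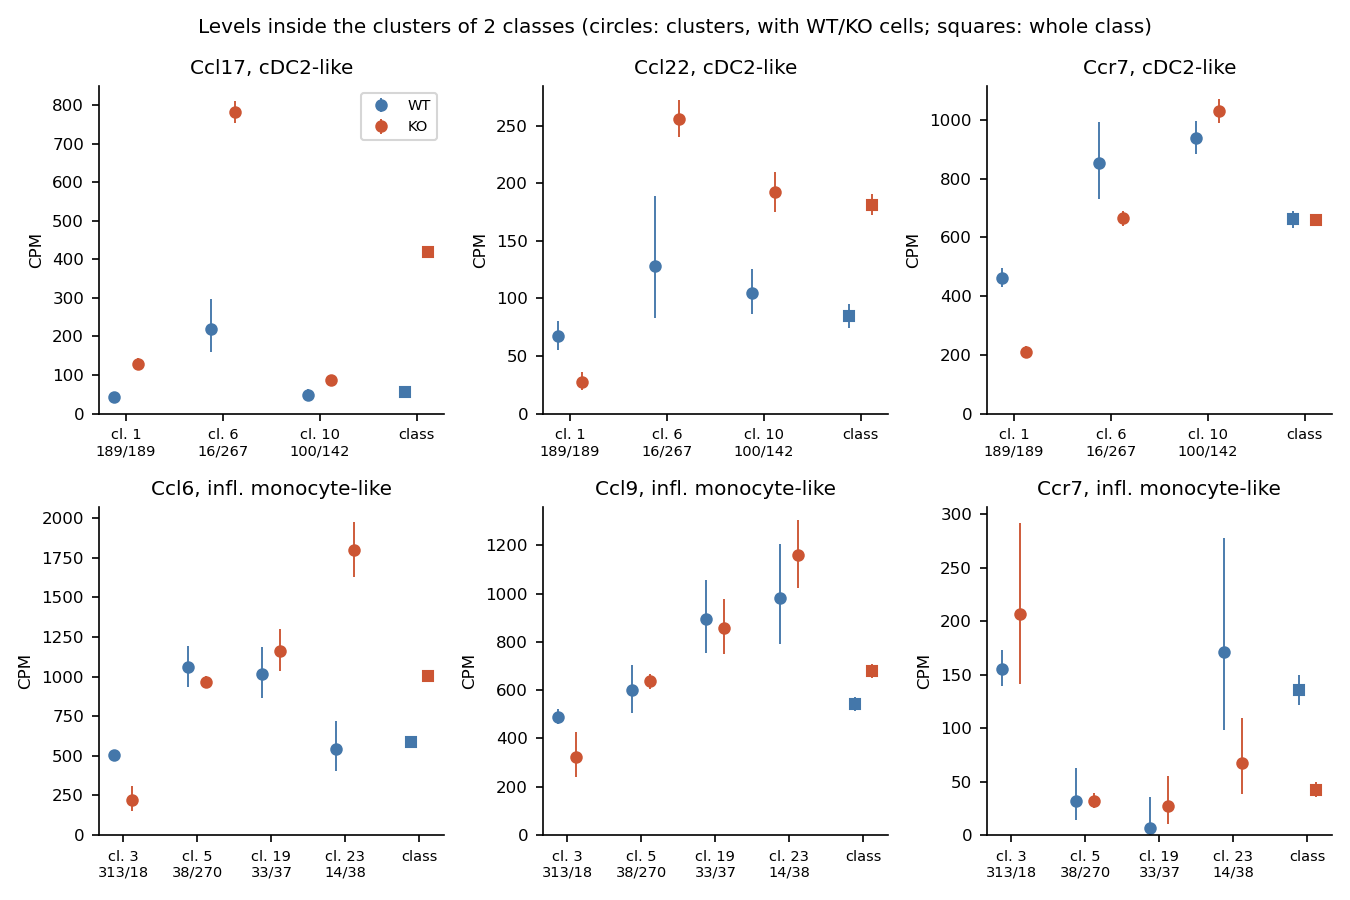
CPM of 3 genes each (vertical axis, with 95% Poisson intervals) inside the clusters of the cDC2-like class (top row) and the inflammatory monocyte-like class (bottom row); circles are clusters with their WT and KO cell numbers below, squares the whole class, WT blue and KO orange. Ccl17 is higher in KO in all 3 cDC2-like clusters, while Ccl6 is higher in KO over the monocyte class (589 and 1007 CPM) but lower in cluster 3 (505 and 220 CPM).

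Ccr3 (ENSMUSG00000035448, chr9:124021972-124031689, plus strand), the receptor for eotaxins, had its highest level in the Serpinb2 cluster, a group of 191 WT and 407 KO cells with little RNA (median 739 and 970 UMIs). The cluster was led by Serpinb2, Retnlg, F5 and Alox15 and kept the name of its first gene, because its depth was low and 4 of 10 neutrophil markers, the most of any list, were raised in it. The raised neutrophil markers were Retnlg, Mmp9, G0s2 and Acod1. S100a9, a neutrophil marker that was not raised, was at 29.1 and 52.7 CPM there. Of the eosinophil markers 2 were raised. Among that list Alox15 was at 402 and 523 CPM and Siglecf at 52.4 and 165 CPM, whereas Epx and Ear1 had 0 UMIs in both libraries. Ccr3 was at 1136 CPM in WT (195 UMIs, 982 to 1307) and 995 CPM in KO (453 UMIs, 906 to 1091), and it was found in 111 of 191 WT cells (58.1%, 50.8 to 65.2%) and 231 of 407 KO cells (56.8%, 51.8 to 61.6%). The log2 ratio was -0.19 with an interval from -0.44 to 0.06. The next class was the Lgmn cluster at 63.3 and 54.4 CPM, 17.9-fold lower in WT (12.3 to 26.9) and 18.3-fold lower in KO (6.22 to 89.1). In B cell-like cells Ccr3 was found in 0 of 190 WT and 0 of 85 KO cells, which allows up to 1.58% and 3.53%, in plasma cell-like cells in 7 of 227 WT cells (3.08%), and in resident macrophage-like cells in 12 of 204 WT (5.88%) and 10 of 110 KO cells (9.09%). The cluster made up 7.35% of WT cells (6.38 to 8.43%) and 16.2% of KO cells (14.8 to 17.7%).

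The same cells had the highest Ccl6 level of all classes, 3349 CPM in WT (575 UMIs) and 6736 CPM in KO (3066 UMIs), a log2 ratio of 1.01 (0.88 to 1.14). With every cell weighted equally the ratio was 0.84, under the limit of 1. Ccl9 was at 670 and 1942 CPM (log2 1.54, 1.25 to 1.83). Of the cells with Ccr3, 101 of 111 in WT and 223 of 231 in KO also held Ccl6. After thinning every cell to 500 UMIs Ccl6 was found in 73.8% of WT cells (67.0 to 79.9%) and 87.0% of KO cells (83.3 to 90.1%), and Ccl9 in 23.6% (17.7 to 30.2%) and 46.9% (42.0 to 51.9%). As background and without thinning, Ccl9 was found in 9 of 190 WT and 4 of 85 KO B cell-like cells. In WT plasma cell-like cells it was found in 16 of 227. Marker lists of other cell types moved with genotype in the Serpinb2 cluster. The 8 plasma cell markers summed to 4345 CPM in WT against 165 CPM in KO, and the 10 basophil and mast cell markers to 6470 and 299 CPM. The 8 epithelial markers summed to 413 and 35.1 CPM. The source of all these transcripts and their part in the Ccl6 and Ccl9 differences were not tested. Past a log2 ratio of 1 were 2 of 3 members, against 8.71% of 1998 genes.

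Neutrophil-like cells (80 WT, 261 KO), with 9 of 10 markers raised, were second to this cluster in Ccl6 in KO. Ccl6 was at 882 CPM in WT (758 to 1020) and 1951 CPM in KO (1855 to 2050), a log2 ratio of 1.15 (0.92 to 1.38), and was found in 46 of 80 WT and 219 of 261 KO cells. The 8 B cell markers summed to 258 CPM in WT against 6.30 CPM in KO in this class, and their part in the Ccl6 difference was not tested. Ccl9 had 5 UMIs in WT and 45 in KO, with a log2 interval from -0.11 to 2.91. Both measured members were past a log2 ratio of 1, against 14.9% of 2176 genes, but Ccl6 was just under it with cell-averaged CPM (0.998) and without the highest doublet scores (0.996). Ccl9 was measured only through its KO UMIs and its interval included 0, so its place in this count is not read as a result. Epithelial cell-like cells (123 WT, 16 KO) held 19.3% of all WT Ccl6 UMIs, at 443 CPM in WT against 540 CPM in KO (log2 0.28, -0.08 to 0.63, and 1.95 with every cell weighted equally). A Ccl6 UMI was found in 37 of the 123 WT cells (30.1%) and 11 of the 16 KO cells (68.8%), and in WT the 5 richest of them held 47.8% of the 1004 UMIs. Ccl9 was at 38.9 and 168 CPM (log2 2.11, and 0.72 with every cell weighted equally), so that 1 of 2 members was past a log2 ratio of 1, against 26.8% of 5829 genes. For background, Ccl6 was found in 4.74% of WT and 2.35% of KO B cell-like cells (median depth 2999.5 and 4394 UMIs), and in 22 of 227 WT plasma cell-like cells (9.69%), whose median of 17931 UMIs was nearer to the 18679 of the WT epithelial cell-like cells. In the annotation E230016K23Rik lies across Ccl6 on the opposite strand, and 59 of the 2996 words of 50 bases in Ccl9 transcripts also occur in transcripts of other genes.

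**Figure D5:**
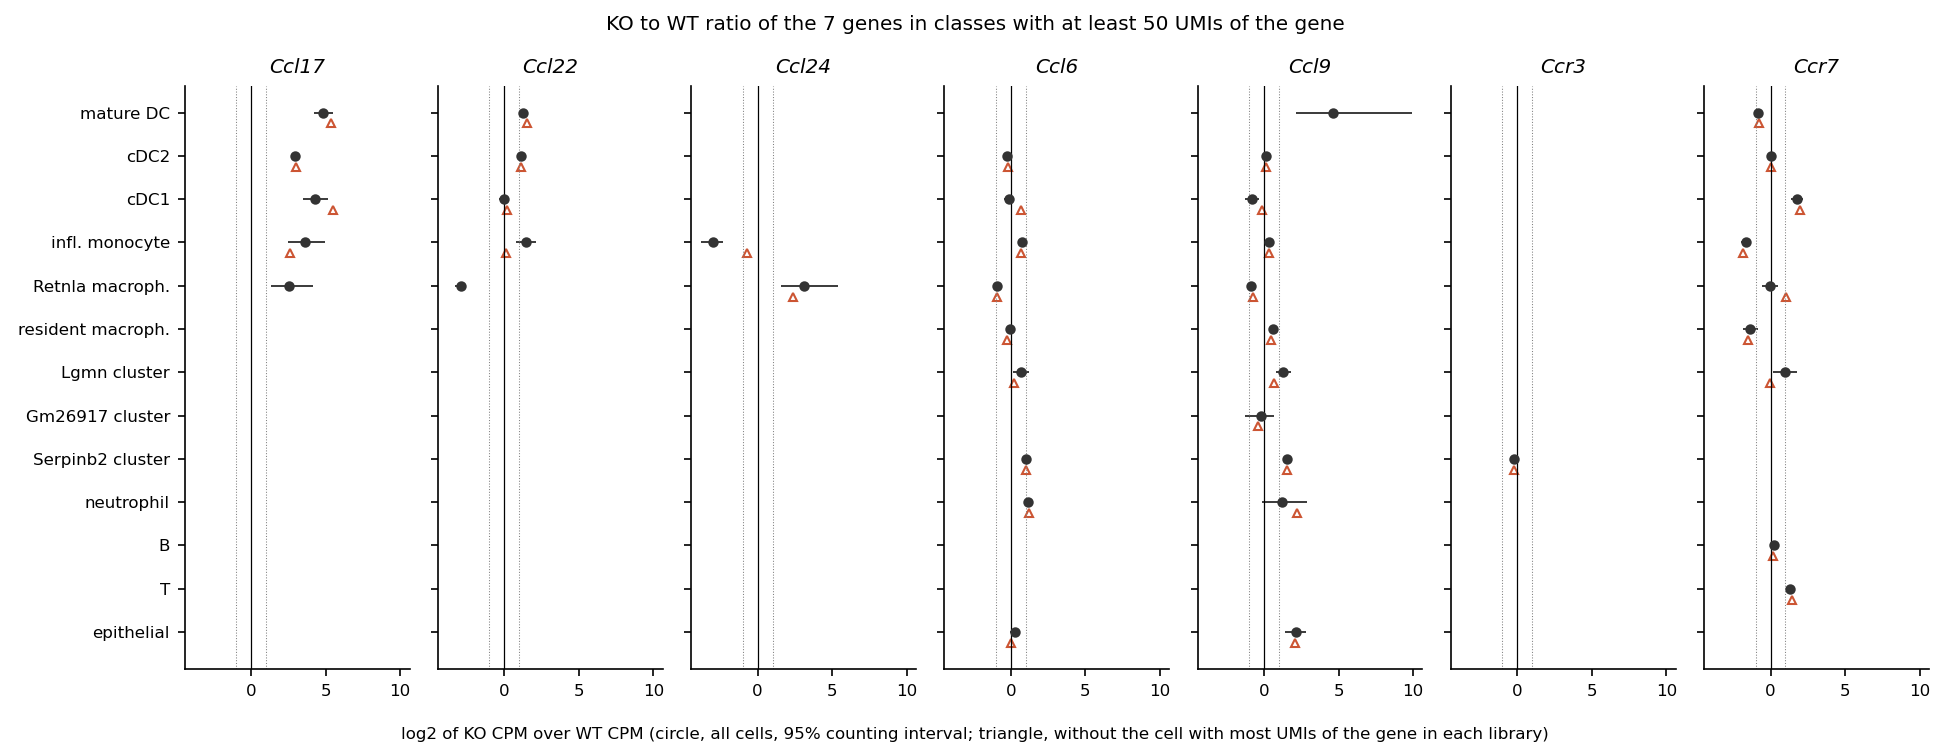
Log2 of KO over WT CPM (horizontal axis) for each gene in the classes with at least 50 of its UMIs, without plasma cell-like cells; circles use all cells, lines are 95% counting intervals, and triangles leave out the cell with the most UMIs of the gene in each library, with no triangle where the WT count became 0. Ccl17 lies above 2 in the 5 classes shown, but all except cDC2-like cells met the 50 UMIs only through the KO library. This agreement is therefore not read as a result. Resident macrophage-like cells, with 7 WT and 4 KO Ccl17 UMIs, are not shown. The Ccl24 value in inflammatory monocyte-like cells moves from -2.99 to -0.71.

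Ccr7 (ENSMUSG00000037944, chr11:99144196-99155077, minus strand) was found in both dendritic cells and lymphocytes. After mature DC-like cells its level was highest in B cell-like cells, at 903 CPM in WT (836 to 973) and 1038 CPM in KO (940 to 1144), and then in cDC2-like cells at 661 CPM in both. The B cell-like ratio was 0.20 (0.02 to 0.38), so 0 of 1 member was past a log2 ratio of 1, against 6.74% of 3292 genes. In T cell-like cells Ccr7 was at 172 CPM in WT against 433 CPM in KO (log2 1.33, 1.06 to 1.61). The largest part lay in the cluster led by Lef1 and Tcf7, transcription factors of naive and memory T cells, with 1079 CPM in 27 WT cells and 1178 CPM in 31 KO cells, a log2 ratio of 0.13 (-0.20 to 0.46). The cluster led by Icos and Tnfrsf4 held 94 of the 227 WT and 8 of the 215 KO UMIs, at 373 and 66.4 CPM (log2 -2.49, -3.74 to -1.45). Of the T cell-like cells, the Lef1 cluster was 27 of 221 in WT and 31 of 82 in KO. The cluster led by Gzma and Gzmb held 140 WT and 31 KO cells, with 5 and 3 Ccr7 UMIs. Over the T cell-like class the 8 NK cell markers summed to 11707 CPM in WT and 264 CPM in KO. Their part in the Ccr7 difference was not tested. The share of neutrophil-like cells with a Ccr7 UMI, read as background, was 5.00% in WT and 1.15% in KO (median depth 2243.5 and 2998 UMIs). Over whole classes the order from mature DC-like through B cell-like to cDC2-like cells was the same in both libraries. The Poisson intervals of neighbours, which cover counting error only, did not overlap. Single clusters did not all follow this order, since the Lef1 cluster (1079 and 1178 CPM) was above B cell-like cells (903 and 1038 CPM).

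Genes with the most similar profiles were taken from 9485 genes over 30 profiles of class and library, using Pearson's r of log2(CPM + 10). A profile needed 20 cells, which left out mature DC-like and Retnla macrophage-like cells of WT and epithelial cell-like and plasma cell-like cells of KO. The profiles share their libraries, so r is given as a description. Ccl17 and Ccl22 were each other's nearest gene (r = 0.91), followed by Gm34047 (0.86) and the IL-12 subunit Il12b (0.83) for Ccl17, and by Il4i1 (0.87) and Apol7c (0.85) for Ccl22. Ccl6 lay nearest to Trib1 (0.89), Rap1gap2 (0.88) and Cd300ld (0.88). Ccl9 lay nearest to the macrophage receptor Adgre1 (0.85), Il6 (0.85) and C3ar1 (0.84). Ccr3 lay nearest to 9830107B12Rik (0.95), F5 (0.94) and Serpinb2 (0.94), all leading genes of its cluster. Ccr7 lay nearest to the transcription factor Irf4 (0.80), Got1 (0.76) and H2-Eb2 (0.75), and Ccl24 to Tfec (0.73), Ednrb (0.72) and Trem2 (0.70).

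Of 29 other genes of these pathways 19 had at least 50 UMIs, of which 3 were higher and 4 lower in KO by a log2 ratio of at least 1 over all cells, against 20.9% of all genes. Higher were the CCR1 ligand Ccl3 (203 and 704 CPM), the monocyte chemokine Ccl7 (22.5 and 104 CPM) and the IL-33 receptor Il1rl1 (7.11 and 16.8 CPM). Lower were Ccl8 (12.6 and 1.48 CPM), Ccl11 (12.1 and 1.52 CPM), Ccl21a (3.79 and 0.269 CPM) and Ccl28 (6.53 and 0.358 CPM). The last 3 came mainly from stromal or epithelial cells in WT, since Ccl11 had 99.1% and Ccl21a 91.7% of WT UMIs in stromal or endothelial cell-like cells and Ccl28 95.2% in epithelial cell-like cells, classes that held 79 and 123 WT but 20 and 16 KO cells. Within stromal or endothelial cell-like cells Ccl11 was at 522 and 128 CPM, and within epithelial cell-like cells Ccl28 was at 52.1 and 51.1 CPM. Ccr4, the receptor of Ccl17 and Ccl22, had 10 UMIs in WT and 27 in KO, of which 70.0% and 59.3% lay in T cell-like cells. Ccr1 was at 170 and 259 CPM (log2 0.61, 0.54 to 0.67). Il4 was at 5.53 and 4.88 CPM, with 66.7% and 83.5% of its UMIs in the Serpinb2 cluster, inside which it was at 408 and 200 CPM. Il5 had 13 and 3 UMIs, Il13 2 and 6, and Il25 0 in both. The IL-4 receptor chain Il4ra was at 116 and 112 CPM and Stat6 at 37.9 and 57.6 CPM.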

How the data were processed

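The deposited matrices, from 10x Genomics 3' v3 libraries, hold whole-number UMI counts without normalization. The authors made these counts with Cell Ranger 3.0.2 (file header) on mm10, and the submitters' processing notes also name Seurat 4. The study's filters were applied (200 to 6000 genes and at most 15% mitochondrial UMIs). They removed 18.5% of 3185 WT and 16.8% of 3020 KO barcodes. Counts were normalised to 10000 per cell, log-transformed and reduced to 2000 variable genes without the 7 members. Both libraries were then clustered jointly from 30 principal components and 15 neighbours by Leiden at a resolution of 1, in Python 3.11.15 with leidenalg 0.10.2, scikit-learn 1.9.0 and scanpy 1.11.5. The DESC clustering of the study was not used here.

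Clusters were named after the marker list of which the greatest part was raised (3 genes or more, each 2-fold over other cells with a prior of 10 CPM and in 10% of its cells). A cluster with a median depth over 3 times below its library's and under 50% of the markers raised kept its first gene as name, a rule set after the first clustering was seen. The named genes were the members in classes of at least 20 cells per library, the 3 genes most like each and a list of 29 pathway genes. Members and lists were chosen with earlier results of these data known. UMIs were summed per class and library. The limit of 50 UMIs was applied to both libraries together, so a gene could meet it through 1 library alone. Where a member met it only through the library with its higher level, its place in a count is not read as a result. Counts of members past a log2 ratio of 1 are a description only. Intervals are exact (Poisson for CPM, conditional binomial for ratios, Clopper-Pearson for shares) at 95%, and a count of 0 allows 3 counts of the total. They cover counting error only, and cells were not treated as replicates. The ratios were tested on simulated data, but no outcome of that is given or used here. Median log2 ratios of all genes per class lay between -0.24 (resident macrophage-like) and 0.08 (Serpinb2 cluster). Scrublet called 0 WT and 4 KO cells (0.159%), too few to have worked, and the highest 3% of its scores were removed only as an alternative. Other alternatives were every barcode, resolution 0.5, libraries clustered alone, members among the variable genes, cell-averaged CPM, thinned cells and, added after the data had been seen, leaving out the cell with the most UMIs. RefSeq had promoter entries for 5 of the 7 members.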

Additional observations from a re-analysis of the deposited data

Results flagged for a closer look

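For Ccr7, Ccl24 and Ccl22 the KO to WT ratio was past a log2 ratio of 1 upward in some cell class and downward in another. Classes with at least 10 cells per library and 50 UMIs of the gene were used, and the widest such difference is given. The share of all genes that meet this rule was not computed, so the number of members that met it is not read as a result. With 1 library per genotype these differences were not tested. For Ccr7 the log2 ratio in cDC1-like cells (1.76) minus that in inflammatory monocyte-like cells (-1.68) was 3.44, and without the top cell of each library the values were 1.99 and -1.84. Inside the 2 largest monocyte clusters, which the libraries filled unequally (313 WT and 18 KO cells, 38 and 270), the ratio was 0.41 (-0.16 to 0.94) and -0.0052 (-1.05 to 1.25), and at resolution 0.5 the class had -1.08. For Ccl24 the difference between Retnla macrophage-like (3.12) and inflammatory monocyte-like cells (-2.99) was 6.12, with 2.36 and -0.71 without the top cells. Inside the 1 monocyte cluster with WT Ccl24 UMIs the ratio was 0.15 (-0.94 to 1.08), and 1.99 without the top cells. For Ccl22 the difference between inflammatory monocyte-like (1.44) and Retnla macrophage-like cells (-2.94) was 4.38. It rested on 2 cells, since the first value was 0.08 without the top cells and the second had no WT UMI left.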

How the results depend on the processing

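Depth and cell number limit these values, since the WT library held 19 mature DC-like and 18 Retnla macrophage-like cells, and 1 library per genotype gives no replicate error. No paired analysis was possible because each genotype had 1 library. Of the alternatives, 26 for source shares, 97 for ratios and 10 for positive shares stayed within the counting interval of the main value, while 6, 18 and 4 moved beyond it and 3 ratios, all of Ccl22 in Retnla macrophage-like cells, reversed. Smaller ratios that changed sign, given at the end, are counted among the others. Where a value moved or reversed, the cause was not tested. At resolution 0.5 the source share of Ccl17 was 55.9% (59.8% as the mean of both libraries in the main analysis), that of Ccl6 15.2% (28.9%), of Ccl9 18.1% (40.5%) and of Ccr7 46.2% (50.2%), and the monocyte ratio was 0.15 for Ccl6 and -0.057 for Ccl9. With every barcode the shares of Ccl6 and Ccl9 were 27.7% and 38.8%. With libraries clustered alone the monocyte ratio was 0.57 for Ccl6 and 0.20 for Ccl9. With cell-averaged CPM it was 0.64 and 0.22, and that of Ccr7 in cDC2-like cells -0.086. Without the top cells Ccl22 in mature DC-like cells was at 1.51. Thinning to 500 UMIs gave KO minus WT shares of 8.77 points for Ccl17 and 3.21 for Ccr7 in cDC2-like cells (23.5 and 15.5 unthinned) and 7.70 for Ccl9 in monocytes (1.81 unthinned), and thinning to 2000 gave 17.7 for Ccl17. The Ccl22 ratio in Retnla macrophage-like cells reversed to at least 1.62 with every barcode, at least 1.50 with the Scrublet scores and at least 1.62 without its top cell, each against a WT floor of 3 UMIs. The Retnla macrophage-like class was not found at resolution 0.5 or in the WT library clustered alone, nor mature DC-like cells in the KO library clustered alone, so the ratios within these classes could not be computed there. The log2 ratio of Ccl17 in cDC2-like cells kept its sign in 7 of 7 alternatives (2.77 to 3.07). That of Ccl9 in inflammatory monocyte-like cells kept it in 6 of 7 (lowest -0.057). The ratio of Ccr7 in cDC2-like cells kept its sign in 2 of 7 (-0.086 to 0.040) and that of Ccl22 in Retnla macrophage-like cells in 2 of 5. All other ratios with alternatives kept their sign in each.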
